A study of Mus musculus with 6 samples.

Results

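The cytosolic ribosomal proteins were followed through sorted pro-B and pre-B cells of old and young mice, with every array probe set that the platform's annotation pairs with 1 such gene. Members were taken by symbol, as Rpl or Rps followed by a digit, Rplp0 to Rplp2 and Rpsa, and the kinases of the Rps6k family were left out. This gave 221 probe sets of 65 genes, out of 21789 probe sets with 1 gene and 28940 in all. The large subunit held 133 probe sets of 39 genes and the small subunit 88 probe sets of 26 genes. Old samples came from BALB/c mice aged 24 months (3 arrays) and young samples from BALB/c mice aged 2 months (3 arrays). In both groups the 2 sorted progenitor populations were combined, the cells received no treatment, and 100 ng of RNA was amplified for a whole-transcript array. The titles number the arrays as replicates within each age, and no label tells single animals from pooled ones. The p-values below therefore measure the spread between these 6 arrays, and their number limits the precision.

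The ribosome is built from ribosomal RNA and a fixed set of proteins, most of them present once in each particle. The large subunit joins amino acids and releases the growing chain through a tunnel, and the small subunit reads the messenger RNA. Messenger RNAs of ribosomal proteins are among the most abundant in dividing cells, and most begin with a run of pyrimidines at their 5′ end through which growth signals set their translation together. Their genes have many processed pseudogenes, so that a probe set annotated to 1 gene can share sequence with other loci. Inherited loss of a copy of several of these genes causes Diamond-Blackfan anaemia, a failure of red cell production in the bone marrow.

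Start regions are printed for 6 core genes, because they carry the extremes of the comparison below. Among core genes with a mean above 9 on the young arrays (log2 intensity) and 1 annotated start, Rps12, Rps13 and Rpl7a differed least from the young mean on old replicate 1, and Rpl5, Rplp0 and Rpl4 differed most. Each line holds 90 bases of the transcribed strand, 60 before the annotated start and 30 from it, from RefSeq on build GRCm38.p6. Capitals mark the longest unbroken run of C and T letters in the window, the first of them where lengths tie, as in Rps13. The windows lie at chr10:23787180-23787269 (minus strand, Rps12), chr7:116334161-116334250 (minus strand, Rps13), chr2:26910747-26910836 (plus strand, Rpl7a), chr5:107900468-107900557 (plus strand, Rpl5), chr5:115559407-115559496 (plus strand, Rplp0) and chr9:64173327-64173416 (plus strand, Rpl4).
Rps12: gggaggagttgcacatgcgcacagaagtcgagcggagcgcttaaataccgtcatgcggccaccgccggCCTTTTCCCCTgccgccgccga
Rps13: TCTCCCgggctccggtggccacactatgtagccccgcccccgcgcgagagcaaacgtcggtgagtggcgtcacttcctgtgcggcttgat
Rpl7a: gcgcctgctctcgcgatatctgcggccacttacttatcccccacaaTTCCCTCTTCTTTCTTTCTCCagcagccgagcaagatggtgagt
Rpl5: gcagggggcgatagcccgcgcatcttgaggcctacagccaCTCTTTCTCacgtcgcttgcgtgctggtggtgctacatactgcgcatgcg
Rplp0: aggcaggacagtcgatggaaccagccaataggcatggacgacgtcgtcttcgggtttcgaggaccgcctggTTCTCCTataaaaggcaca
Rpl4: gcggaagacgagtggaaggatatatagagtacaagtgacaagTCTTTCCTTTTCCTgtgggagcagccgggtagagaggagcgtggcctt
The run was 11 letters long in Rps12, 6 in Rps13 and 21 in Rpl7a, and it was 9 in Rpl5, 7 in Rplp0 and 14 in Rpl4, so that long and short runs occurred at both extremes. RefSeq start windows matched 51 of the 65 genes, with 60 windows of 32851 in the table. A run of at least 10 letters C or T lay in the 90 bases of 25 of the 60 windows (41.7%), against 17.0% of all windows. In the full window of 300 bases, CGGAAG on either strand, the core of the motif of ETS factors, was found in 37 of 60 (61.7%), against 16.9% of all windows. TATAAA on the transcribed strand was found in 5 of 60 (8.33%), against 8.32% of all. These matches describe letters in fixed windows and not sites that a factor was seen to bind.

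Some facts of all 6 arrays touch every value below. Old replicates 1 and 2 stood apart from the other 4 arrays: the interquartile range of all annotated probe sets was 1.41 and 1.40 on these arrays and 2.44 on old replicate 3, against 2.76 to 2.98 on the young arrays (log2). Probe sets of olfactory and vomeronasal receptors, genes of sensory neurons that serve here as a guide to the background, had a 95th percentile of 6.29, 6.21 and 5.02 on old replicates 1, 2 and 3, against 4.57 to 4.75 on the young arrays. Of 11 measured B cell progenitor markers, 4, 6 and 11 exceeded that percentile on old replicates 1, 2 and 3, against 11 on each young array. Vpreb1, part of the surrogate light chain, was at 11.13, 11.69 and 10.82 on the old arrays, against 11.15, 10.76 and 11.07 on the young arrays, whereas Ebf1, a B lineage transcription factor, was at 4.64, 5.61 and 9.70, against 10.07, 10.02 and 9.90. Neutrophil markers were also measured on the young arrays: 3, 4 and 9 of 9 exceeded the receptor percentile on the old arrays, against 9 on every young array, and S100a8 was at 10.30, 11.48 and 11.51, against 11.30, 11.33 and 11.47. The summed linear intensity of the 11 progenitor markers was 2839, 4396 and 7925 on the old arrays, against 9093 to 9591 on the young arrays. That of the 9 neutrophil markers was 2051, 4798 and 8505, against 7989 to 10188. Such sums weigh the brightest marker most, which among the 11 was Vpreb1 on every array. Most of these markers were low on old replicates 1 and 2, as the ribosomal proteins were. Vpreb1 and the neutrophil marker Prtn3 did not lie below the young range on either array. Nor did S100a8 and Igll1 on old replicate 2, or Elane on old replicate 1, where Elane was under the receptor percentile. The part of the cell types in the ribosomal protein levels was not tested.

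Core ribosomal protein genes made up 54 of the 65 genes and 209 of the 221 probe sets. A further 16 core genes whose symbols fit the rule have probe sets only in common with other genes, among them Rpl11, Rpl3, Rps24 and Rps26. The other members are 9 related genes, such as the copies Rpl10l, Rpl39l and Rps27l, and 2 pseudogene models, Rpl14-ps1 and Rps19-ps3. Rps19bp1 fits the symbol rule but encodes a protein that binds Rps19, not a ribosomal protein. There were 26 genes with 1 probe set and 17 with 5 or more, up to 14 for Rps12. Values were identical on all 6 arrays within groups of 5 and 3 probe sets of Rps12, 3 of Rpl41, 2 groups of 2 of Rpl23a, 2 of Rpl27 and 2 of Rps28, so that the 221 probe sets carry 209 distinct measurements. Probe sets of several genes that name a member numbered 239 and were left out.

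Between old and young arrays, the ribosomal protein probe sets had lower means in old cells almost throughout, but the old arrays disagreed among themselves. The old mean was below the young mean for 213 of 221 probe sets and above it for 8, against 8912 and 14498 of the 23410 annotated probe sets. The median difference, old minus young, was -1.56 on the log2 scale for the large subunit and -1.37 for the small subunit, against 0.35 over all 23410 annotated probe sets. Taken array by array, the large subunit had a median difference from the young mean of -2.88 on old replicate 1, -1.94 on old replicate 2 and 0.027 on old replicate 3. For the small subunit it was -2.44, -1.42 and 0.074, and for all annotated probe sets 0.48, 0.43 and 0.047. Old replicate 1 lay below every young array for 212 members (background 35.1%) and above every one for 7 (background 60.0%), and old replicate 2 did so for 199 (background 35.0%) and 15 (background 59.5%). The lower means thus came from old replicates 1 and 2, while old replicate 3 lay close to the young arrays. These 2 arrays also had the narrower intensity range and the higher receptor percentile given above, and the part of these was not tested. In bulk samples of sorted cells, fewer cells of a type, less of an RNA per cell and array quality cannot be told apart.

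With limma over all 23410 annotated probe sets, 0 of the 221 members passed an adjusted p of 0.05 (background 0.0%), and the smallest adjusted p was 0.101. An unadjusted p under 0.05 was reached by 87 members with a lower old mean (background 21.9%) and by 2 with a higher one (background 24.9%). All 3 old values lay below all 3 young values for 63 members, 49 of the large and 14 of the small subunit (background 22.9%). All 3 lay above them for 3 members, 1 probe set each of Rpl39l, Rps12 and Rps23rg1 (background 36.1%). The groups overlapped for the other 155. Without old replicate 3, limma called 193 members lower in old cells (background 30.2%) and 4 higher (background 52.2%), and left 24 uncalled. The 193 were 124 of the 133 large-subunit probe sets and 69 of the 88 small-subunit ones. With old replicate 3 as the single old array, 3 were called lower (background 5.24%), 1 probe set each of Rpl3l, Rpl7a and Rps2, and 1 higher, Rps23rg1 (background 1.76%). In that fit the lone array is assumed to vary like the young ones. Quantile normalization of the 6 arrays brought the median difference to -0.30 for the large and -0.25 for the small subunit. Under it the differences of Rplp1, Rplp2, Rpl7a, Rpl22, Rpl27a, Rpl36a, Rps12 and Rps19, negative as given below, were positive, from 0.083 to 1.01.

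**Figure D1:**
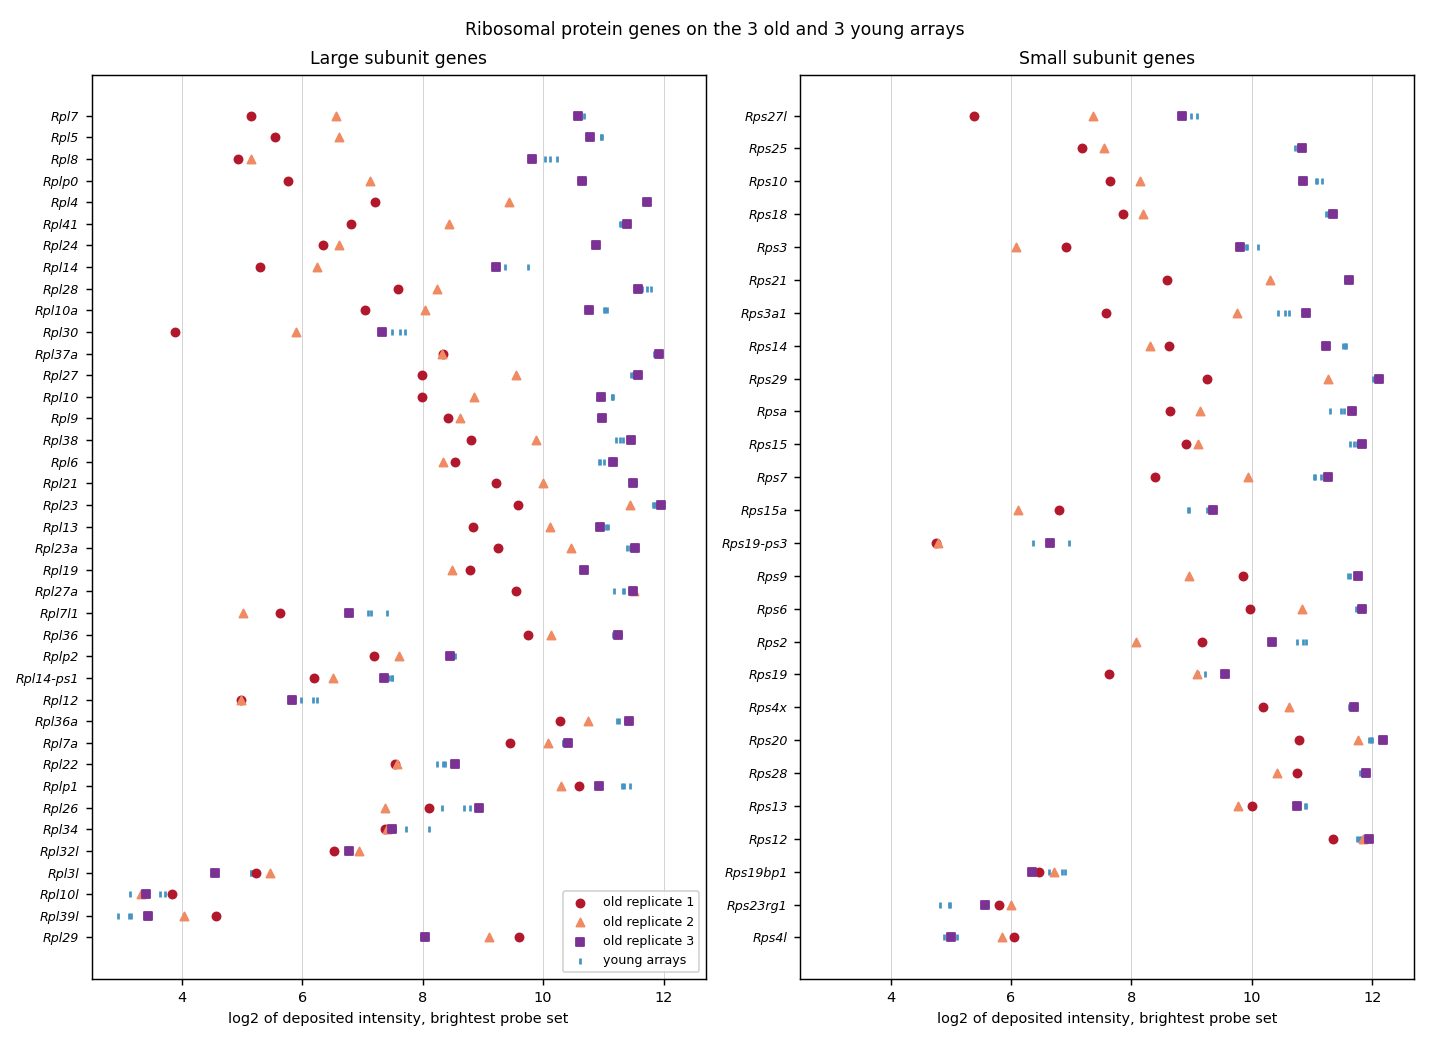
Log2 of the deposited intensity (horizontal) of the brightest probe set of each of the 39 large-subunit genes (left panel) and 26 small-subunit genes (right panel). Circles, triangles and squares are old replicates 1, 2 and 3 and ticks are the 3 young arrays; genes are ordered by the difference of old replicate 1 from the young mean, and for most genes the squares lie at the ticks while circles and triangles lie to their left.

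The members lie mostly at the bright end of the arrays, where old replicates 1 and 2 were low for other genes too. A mean above 9 over all 6 arrays was reached by 182 members (109 large, 73 small) and by 723 annotated probe sets, members included. Old replicate 1 had a median difference from the young mean of -2.79 for these members, against -2.63 for the 723, and old replicate 2 one of -1.83, against -1.73. On old replicate 1, 162 of the 182 were more than 1 unit below the young mean (background 88.5%), and on old replicate 2, 143 were (background 71.6%). On old replicate 3, 45 of the 182 lay below every young array (background 34.6%) and 108 above (background 44.7%). The 45 are also those without overlap, lower in old cells (background 33.5%). Choosing instead by a mean above 9 on the young arrays alone kept 198 members of 1372 probe sets, and the medians were then -2.82, against -3.27, on old replicate 1 and -1.94, against -2.68, on old replicate 2. That choice admits genes that are bright only on young arrays, so it is given as a description.

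The P stalk is the arm of the large subunit that recruits translation factors, with Rplp0 at its base and Rplp1 and Rplp2 bound to it. Rplp0 was measured at 5.76, 7.13 and 10.65 on old replicates 1, 2 and 3, against 10.69, 10.68 and 10.70 on young replicates 1, 2 and 3. The old arrays all lay below the young ones, although old replicate 3 differed by only 0.040 from the young mean, and the fitted difference was -2.84 ± 1.13 (SE, n = 3 each, limma adjusted p = 0.102). The second Rplp0 probe set was at 4.59, 6.52 and 6.93, against 7.21, 7.20 and 7.32. Its differences from the young mean were -0.72 on old replicate 2 and -0.31 on old replicate 3. Rplp1 was at 10.60, 10.30 and 10.94, against 11.44, 11.31 and 11.35, a difference of -0.75 ± 0.24 (adjusted p = 0.101) with no overlap. Its second probe set was at 6.41, 7.02 and 10.08, against 10.60, 10.39 and 10.47, so that the lower values on old replicates 1 and 2 differed in size between probe sets of 1 gene. Rplp2 was at 7.19, 7.60 and 8.45, against 8.54, 8.43 and 8.51, a difference of -0.75 ± 0.34 (adjusted p = 0.119), with old replicate 3 inside the young range.

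Rpl5 carries the 5S ribosomal RNA into the large subunit together with Rpl11, and when assembly fails the same complex binds Mdm2 and stabilises p53. Its brightest probe set was at 5.54, 6.61 and 10.79 on the old arrays, against 10.97, 10.96 and 10.96 on the young arrays, a difference of -3.32 ± 1.24 (SE, adjusted p = 0.101). The young arrays agreed within 0.0056 (SD) and the old arrays spread with an SD of 2.77. All 5 Rpl5 probe sets lay lower on each old array than on any young array. Its dimmest was at 3.14, 4.34 and 8.98 on the old arrays, against 9.19, 9.33 and 9.28.

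Other large-subunit genes also had low values on old replicates 1 and 2. Rpl8, a protein next to the peptidyl transferase centre, was at 4.93, 5.15 and 9.81 on the old arrays, against 10.11, 10.04 and 10.23 on the young ones (difference -3.50 ± 1.23, adjusted p = 0.101). Rpl7 was at 5.15, 6.56 and 10.58, against 10.59, 10.67 and 10.53, which put old replicate 3 inside the young range, whereas it lay below in the other 3 probe sets (difference -3.17 ± 1.26, adjusted p = 0.102). Rpl24, which forms a bridge to the small subunit, was at 6.35, 6.61 and 10.87, against 10.82, 10.86 and 10.84 (difference -2.90 ± 1.14, adjusted p = 0.102), so that old replicate 3 exceeded every young array in this probe set, while the other 2 Rpl24 probe sets had it below every young array. On old replicates 1 and 2, Rpl8 lay below the 95th percentile of receptor probe sets, where its signal was not above that background. The same held on old replicate 1 for Rpl7, Rpl5 and Rplp0.

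Rpl4 lines the exit tunnel, and Rpl19 and Rpl23a sit close to its mouth. Rpl4 was at 7.21, 9.44 and 11.73 on the old arrays, against 11.70, 11.68 and 11.73 on the young arrays (difference -2.25 ± 1.02, adjusted p = 0.118), so that old replicate 3 lay within the young range. Rpl19 was at 8.79, 8.49 and 10.68, against 10.66, 10.64 and 10.65, and Rpl23a at 9.25, 10.46 and 11.53, against 11.44, 11.45 and 11.40. For both, old replicate 3 lay above every young array while the other old arrays lay below. Rpl22, which is needed for lymphocyte development and is recurrently mutated in leukaemia, was at 7.53, 7.57 and 8.54, against 8.33, 8.24 and 8.37 (difference -0.43 ± 0.32, adjusted p = 0.262). Rpl10, which completes the large subunit late in its assembly and is mutated in T cell leukaemia, was at 7.99, 8.85 and 10.96, against 11.14, 11.16 and 11.15 (difference -1.88 ± 0.70, adjusted p = 0.101). All 6 probe sets of Rpl10 lay lower on each old array than on any young array.

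Some large-subunit genes had smaller or opposite differences on old replicates 1 and 2. Rpl27a was at 9.55, 11.52 and 11.50 on the old arrays, against 11.34, 11.32 and 11.18 on the young arrays, so that the other 2 old arrays exceeded the young ones and old replicate 1 alone was low (difference -0.43 ± 0.54, adjusted p = 0.500). That is the brightest of 9 Rpl27a probe sets, and the other 8 lay below every young array on old replicate 2 (median difference over the 9, -0.40). The dimmest was at 6.78, 7.79 and 10.10, against a young mean of 10.04. Rpl29, a small protein of the large subunit, was the only core gene whose brightest probe set had a higher old mean: 9.61, 9.11 and 8.03 on the old arrays, against 8.03, 8.06 and 7.98 on the young ones (difference 0.89 ± 0.40, adjusted p = 0.117). Its high values lay on the same 2 arrays where most members were low. Rpl36a was at 10.28, 10.74 and 11.43, against 11.37, 11.26 and 11.24 (difference -0.47 ± 0.32, adjusted p = 0.235). Rpl7a was at 9.45, 10.08 and 10.41, against 10.34, 10.33 and 10.35 (difference -0.36 ± 0.29, adjusted p = 0.301). Both had old replicate 3 above every young array, but the other 2 Rpl7a probe sets had it below, at 9.01, against 9.33, 9.21 and 9.30, and at 8.18, against 8.80, 8.67 and 8.79.

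In the small subunit, Rps3 and Rps2 line the path by which messenger RNA enters. Rps3 was at 6.91, 6.09 and 9.80 on the old arrays, against 9.92, 9.90 and 10.10 on the young arrays (difference -2.37 ± 0.89, adjusted p = 0.101). Its value on old replicate 2 was under the receptor percentile of that array, so that its distance from the others has no exact size. Rps2 was at 9.17, 8.08 and 10.33, against 10.91, 10.85 and 10.76 (difference -1.64 ± 0.53, adjusted p = 0.101). In the brightest probe sets of both genes old replicate 2 was lower than old replicate 1, the opposite of most members. No old value of these probe sets reached the young range. Old replicate 3 lay below every young array in 2 of the 3 Rps2 probe sets. A second Rps2 probe set was at 7.72, 8.04 and 9.55, against 10.25, 10.10 and 10.15, and it was called lower on old replicate 3 alone (limma adjusted p = 0.0381).

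Several small-subunit genes are known from disorders of the marrow. Rps14, whose loss of a copy underlies the anaemia of the 5q deletion syndrome, was at 8.63, 8.31 and 11.23 on the old arrays, against 11.55, 11.52 and 11.56 on the young arrays (difference -2.15 ± 0.73, adjusted p = 0.101). Rps10 was at 7.64, 8.14 and 10.85, against 11.17, 11.08 and 11.06 (difference -2.23 ± 0.79, adjusted p = 0.101), and like Rps14 it did not overlap. Rps19, the gene most often mutated in Diamond-Blackfan anaemia, was at 7.63, 9.10 and 9.55, against 9.10, 9.09 and 9.22 (difference -0.38 ± 0.48, adjusted p = 0.506). For Rps19, old replicate 1 was low, old replicate 2 lay within the young range and old replicate 3 above it. Rps20 was at 10.78, 11.77 and 12.18, against 11.98, 11.99 and 11.95 (difference -0.39 ± 0.37, adjusted p = 0.373). Rps28 was at 10.75, 10.42 and 11.89, against 11.85, 11.83 and 11.80 (difference -0.81 ± 0.39, adjusted p = 0.130). Rps29 was at 9.25, 11.27 and 12.11, against 12.08, 12.08 and 12.02 (difference -1.18 ± 0.68, adjusted p = 0.176). In the brightest probe sets of these 3 genes old replicate 3 exceeded every young array and the other old arrays did not reach the young range. On old replicate 3, 3 of the 4 Rps29 probe sets lay above the young range. On old replicate 1, 6 of the 7 Rps28 probe sets lay below it.

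Taken as a list of 21 genes linked to inherited marrow failure, 11 had a probe set of their own. All 11 had a lower old mean, as did 213 of all 221 member probe sets and 8912 of 23410 annotated ones. In limma, 3 of the 11 had an unadjusted p under 0.05 (Rpl5, Rps10 and Rps14, background 21.9%), a share near the background, and 0 passed the adjusted threshold. Their median differences from the young mean were -2.70, -1.41 and 0.10 on old replicates 1, 2 and 3. Rpl26 was at 8.10, 7.38 and 8.93 on the old arrays, against 8.69, 8.79 and 8.32 on the young ones. Rpl27 was at 7.99, 9.55 and 11.58, against 11.50, 11.49 and 11.46. Rps7 and Rps15a were at 8.39, 9.93 and 11.27 and at 6.79, 6.12 and 9.36 on the old arrays, against 11.04, 11.15 and 11.05 and 8.96, 8.93 and 9.25 on the young arrays. In all 4, old replicate 3 lay above the young range. The Rps15a value on old replicate 2 was under the receptor percentile of that array.

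Of the other small-subunit genes, Rps6 is the substrate of the S6 kinases that act downstream of mTOR. It was at 9.97, 10.83 and 11.84 on the old arrays, against 11.78, 11.76 and 11.72 on the young arrays (difference -0.88 ± 0.45, adjusted p = 0.147). Rpsa, also known as the laminin receptor and mutated in inherited absence of the spleen, was at 8.64, 9.14 and 11.66, against 11.53, 11.30 and 11.48 (difference -1.62 ± 0.74, adjusted p = 0.119). Rps15, recurrently mutated in chronic lymphocytic leukaemia, was at 8.91, 9.10 and 11.82, against 11.74, 11.69 and 11.63. In these brightest probe sets old replicate 3 was above the young range and the other old arrays below it. On old replicate 3, all 8 Rps6 probe sets lay above the young range, but of the 5 of Rpsa 1 lay above and 1 below, and of the 3 of Rps15 1 lay below.

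Rps12, a protein of the small subunit, had the smallest difference on old replicate 1 among the small-subunit genes bright on the young arrays. Its brightest probe set was at 11.35, 11.85 and 11.94 on the old arrays, against 11.81, 11.77 and 11.75 on the young arrays, and the fitted difference was -0.064 with a 95% interval of -0.62 to 0.50 (limma adjusted p = 0.820). Another Rps12 probe set was at 11.60, 11.63 and 11.53, above the young values of 11.45, 11.39 and 11.34. Yet another was at 7.75, 8.96 and 11.31, against 11.35, 11.28 and 11.34. Probe sets of 1 gene thus lay on opposite sides of the young level on old replicates 1 and 2, while on young arrays and old replicate 3 they stayed together.

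Genes related to ribosomal proteins, which stood at lower intensities, did not follow one pattern. Rps23rg1, a retroposed copy of Rps23, was at 5.81, 6.01 and 5.57 on the old arrays, against 4.98, 4.97 and 4.82 on the young arrays (difference 0.87 ± 0.22, unadjusted p = 0.00517, adjusted p = 0.101). Rpl39l, a testis-associated copy of Rpl39, was at 4.57, 4.03 and 3.44, against 3.16, 3.13 and 2.93 (difference 0.94 ± 0.32, adjusted p = 0.101). Both had every old value above every young one. Rpl39l lay below the receptor percentile on all 6 arrays and Rps23rg1 did on old replicates 1 and 2. The values of Rps4l, Rpl7l1, Rpl3l and Rpl10l given below were likewise under it on these 2 arrays, and that of Rps27l was under it on old replicate 1. Rpl7l1, a relative of Rpl7, was at 5.63, 5.01 and 6.78, against 7.10, 7.14 and 7.40 (difference -1.40 ± 0.45, adjusted p = 0.101). Rps27l, a target of p53 related to Rps27, was at 5.39, 7.35 and 8.84, against 8.85, 8.99 and 9.09. Rpl3l, the muscle relative of Rpl3, was at 5.23, 5.47 and 4.55, against 5.18, 5.14 and 5.15, and Rpl10l, a testis-associated copy of Rpl10, was at 3.84, 3.32 and 3.41, against 3.72, 3.14 and 3.64. Rps4l is a copy of the X-linked Rps4x. Its brighter probe set was at 6.04 and 5.85 on old replicates 1 and 2, above the young range of 4.89 to 5.11, and inside it on old replicate 3. The second Rps4l probe set was at 4.44, 4.74 and 4.78, against 4.74, 4.66 and 4.74, so that it lay below the young range on old replicate 1. Rps4x itself was at 10.18, 10.61 and 11.70, against 11.69, 11.65 and 11.62. Over the 12 probe sets of related genes and pseudogene models, 7 had a lower and 5 a higher old mean, and the median difference was -0.065.

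Further genes had many probe sets or stood at the ends of the ranges. Rpl9 was at 8.41, 8.62 and 10.98 on the old arrays, against 10.95, 10.90 and 10.98 on the young arrays, and Rpl21 at 9.22 on old replicate 1 and 11.50 on old replicate 3, against 11.48, 11.54 and 11.49. Rpl36 was at 9.75, 10.13 and 11.24, against 11.29, 11.16 and 11.20. All 8 Rpl9, 9 Rpl21 and 9 Rpl36 probe sets lay below every young array on old replicates 1 and 2. Rpl37a was at 8.34, 8.32 and 11.92, against 11.92, 11.89 and 11.84, and Rpl23 at 9.59, 11.45 and 11.97, against 11.86, 11.84 and 11.83. In both, old replicates 1 and 2 lay below the young range, by much less for Rpl23 on old replicate 2. Rpl12, which binds at the base of the stalk, was at 4.98, 4.98 and 5.83, against 6.24, 5.98 and 6.18, so that its values on old replicates 1 and 2 were under the receptor percentile. Rpl34 was at 7.37, 7.41 and 7.49, against 7.53, 8.10 and 7.72, and Rpl32l at 6.52, 6.95 and 6.78, against 6.79, 6.53 and 6.53. All 3 old values were below the young ones for Rpl12 and Rpl34, and the groups overlapped for Rpl32l. In the small subunit, Rps25, on which several viral internal ribosome entry sites depend, was at 7.18, 7.55 and 10.83, against 10.81, 10.77 and 10.72. Its 6 probe sets all lay below every young array on old replicates 1 and 2. Rps9 was at 9.85, 8.96 and 11.76, against 11.72, 11.60 and 11.62, and its second probe set at 6.97, 7.50 and 10.04, against 10.38, 10.32 and 10.33, so that the probe sets disagreed on old replicate 3. Rps13 was at 9.77 on old replicate 2 and 10.75 on old replicate 3, against 10.88, 10.90 and 10.69 on the young arrays.

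**Figure D2:**
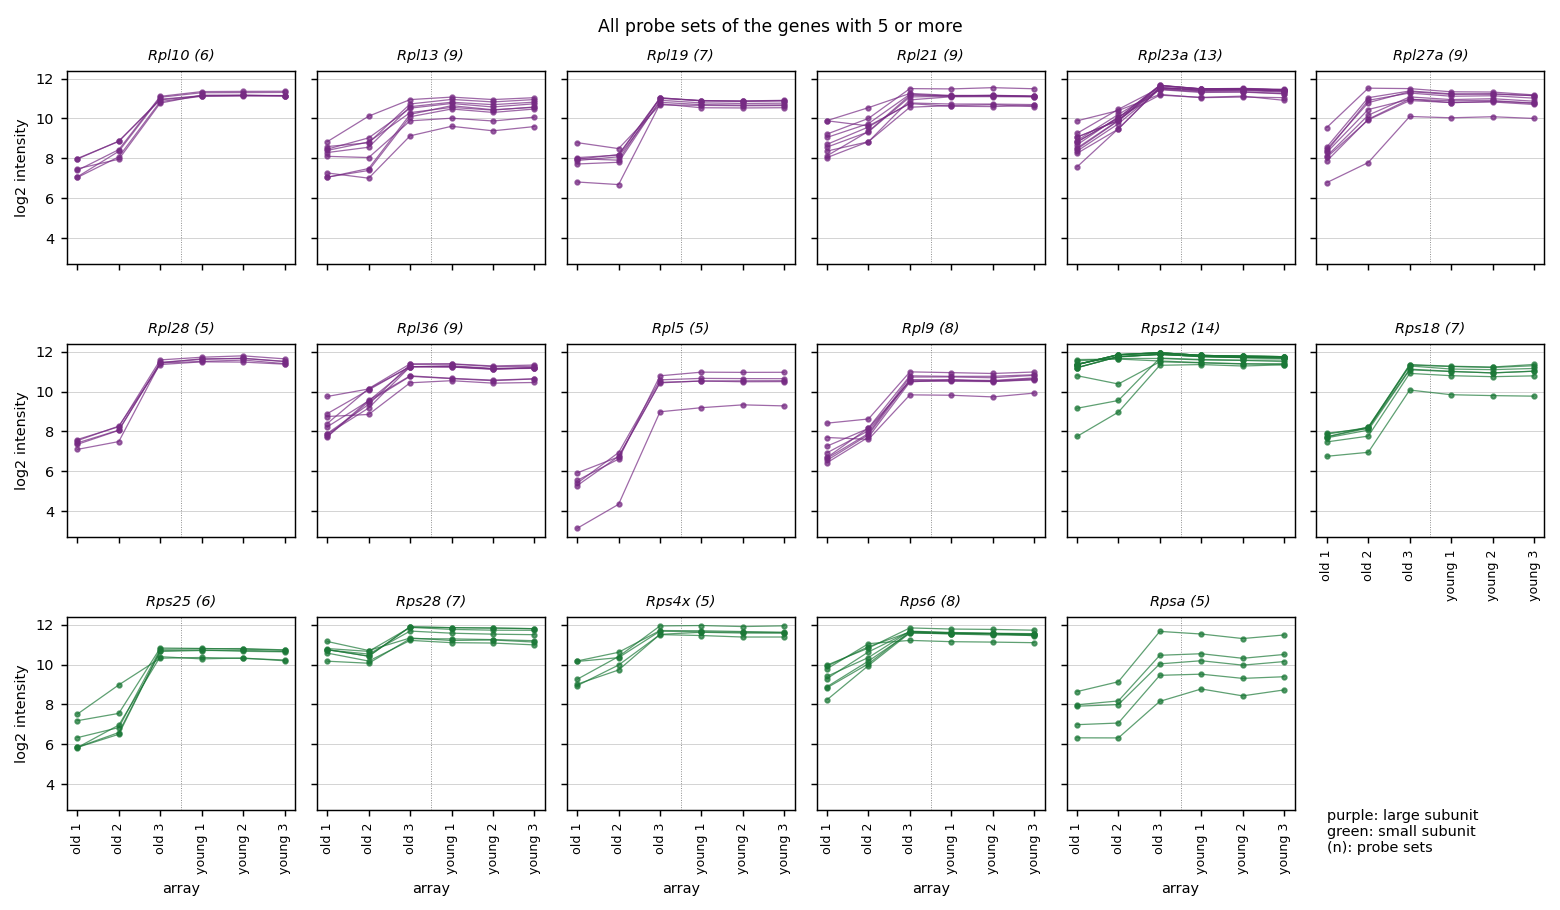
Log2 of the deposited intensity (vertical) on each array (horizontal, the 3 old arrays left of the 3 young arrays) for every probe set of the 17 genes with 5 or more; each line is 1 probe set and the number beside the gene counts them. Lines of a gene run close to parallel from old replicate 3 through the young arrays and fan out on old replicates 1 and 2, most widely in Rps12, where they span 7.75 to 11.60 on old replicate 1.

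The probe sets of 1 gene were compared with each other by their differences from the young mean on each old array. In the 38 genes with at least 2 distinct probe sets, the differences from the young mean ranged over a median of 1.26 log2 units within a gene on old replicate 1 and 0.93 on old replicate 2, against 0.15 on old replicate 3. In the 17 genes with 5 or more, the medians were 1.61, 1.21 and 0.17. The differences themselves were also larger on old replicates 1 and 2 than on old replicate 3, and the cause of the wider ranges was not tested. The plot of every probe set shows this fan on old replicates 1 and 2. Rps12 had the widest range, from -3.58 to 0.21 on old replicate 1, and its range on old replicate 3 was from -0.0090 to 0.17. Rps18 differed far less, from -3.43 to -3.05 on old replicate 1, and Rpl28 from -4.50 to -3.91. Rps28 stayed between -1.08 and -0.032 on old replicate 1. A gene's difference on old replicates 1 and 2 therefore depended on which probe set was read, more in some genes than in others. These comparisons use differences within a probe set, and not levels of one probe set against another.

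**Figure D3:**
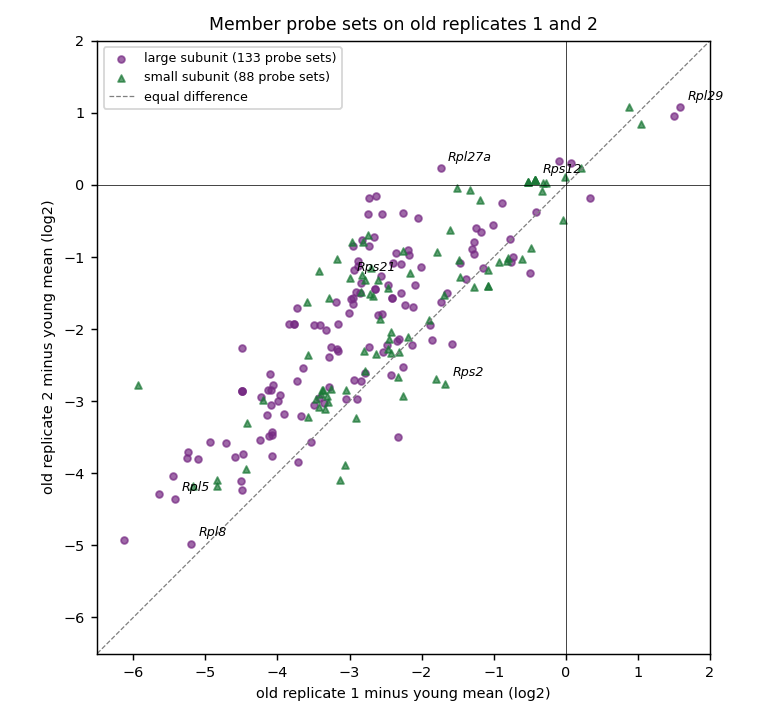
Difference from the young mean (log2) of each of the 221 member probe sets on old replicate 1 (horizontal) and old replicate 2 (vertical), with circles for the large and triangles for the small subunit. Most points lie below 0 on both axes and above the dashed line of equal difference, that is, lower on old replicate 1.

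Old replicates 1 and 2 also differed from each other. Old replicate 1 was the lower one for 185 of 221 members, 116 of 133 in the large and 69 of 88 in the small subunit, against 11635 of 23410 annotated probe sets. The median of old replicate 2 minus old replicate 1 was 0.87 for the large and 0.50 for the small subunit, against -0.0028 over the annotated probe sets. Probe sets with a mean above 9 over all arrays had lower medians on old replicate 1 generally, members included. Their median differences from the young mean on old replicates 1 and 2 were -2.79 and -1.83 for the 182 members. They were -2.63 and -1.73 for all 723 such annotated probe sets. Single members ran the other way: by their brightest probe sets, Rps3, Rps2, Rplp1 and Rpl29 were lower on old replicate 2. Of these, Rps3 was under the receptor percentile on that array. A probe set of Rps21 was at 4.30 on old replicate 1, under the receptor percentile of that array so that its distance from the others has no exact size, at 7.45 on old replicate 2 and at 10.22 on old replicate 3, against 10.22, 10.22 and 10.26 on the young arrays. Replicates of an age group are not ordered, and these are differences between 2 arrays with no error of their own.

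**Figure D4:**
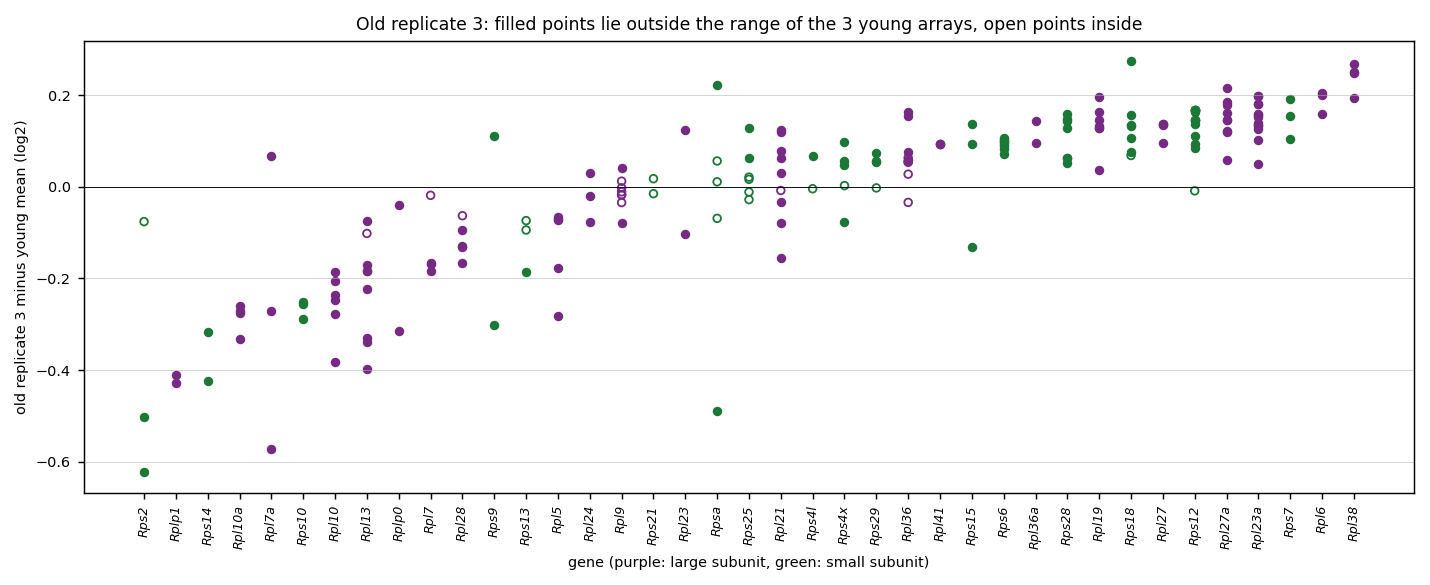
Old replicate 3 minus the young mean (log2, vertical) for every probe set of the 39 genes with at least 2, ordered by the gene's median; purple is the large and green the small subunit. Filled points lie outside the range of the 3 young arrays and open points inside; the genes at the left lie below 0 with all their probe sets and those at the right above it.

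Old replicate 3, which resembled the young arrays most, did not match them gene by gene. It lay below every young array for 65 of 221 members, 50 of the large and 15 of the small subunit (background 31.8%), and above every young array for 117, 62 of the large and 55 of the small subunit (background 41.7%). It fell within the young range for 39. The differences were small, from -0.62 to 0.65 log2 units, with none of the members bright on average over the 6 arrays more than 1 unit lower (background 0.0%).

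The probe sets of a gene were compared on old replicate 3. Of the 39 genes with at least 2 probe sets, 7 (17.9%) had all of them below every young array, 11 (28.2%) had all of them above, and 21 were mixed or partly inside the young range. Of 960 other genes with several probe sets, 28.7% had all below and 17.0% all above. The 7 lower ones were Rplp1 (median difference -0.42), Rps14 (-0.37), Rpl10a (-0.27), Rps10 (-0.26), Rpl10 (-0.24), Rplp0 (-0.18) and Rpl5 (-0.074). Rpl38, known in mouse for its part in translating Hox messenger RNAs, had the largest median among the higher ones, 0.25 over 4 probe sets. The others were Rpl6 (0.20), Rps7 (0.15), Rpl23a (0.15), Rpl27a (0.15), Rpl27 (0.14), Rpl19 (0.13), Rps28 (0.13), Rpl36a (0.12), Rps6 (0.096) and Rpl41 (0.093). For Rpl41 the 3 probe sets hold identical values and count as 1 measurement. Rpl23a had all 13 probe sets above every young array, with differences between 0.049 and 0.20. Rpl13 leaned the other way, with 8 of 9 probe sets below and differences between -0.40 and -0.075. Probe sets of a gene share their sample and may share sequence, so their agreement is not replication of the age difference, which rests on 1 old array here.

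**Figure D5:**
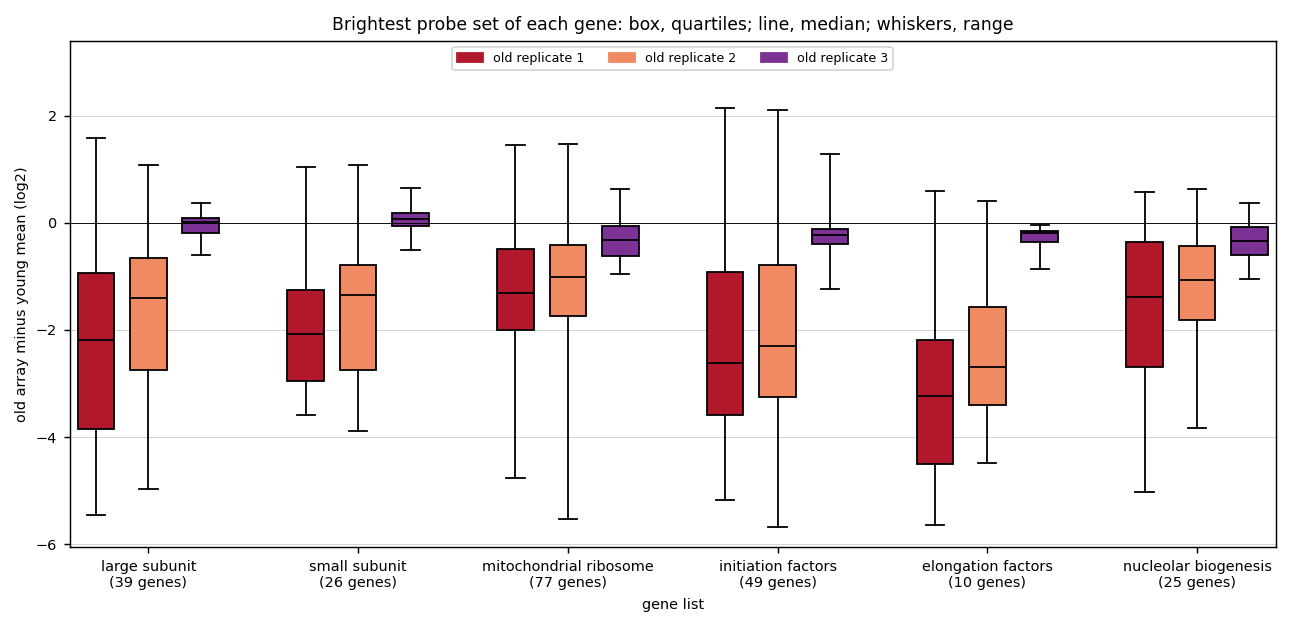
Old array minus young mean (log2, vertical) over the genes of 6 lists (horizontal), each gene by its brightest probe set, for old replicates 1, 2 and 3 from left to right in each list. Boxes span the quartiles, lines are medians and whiskers the full range; on old replicate 3 the large and small subunit have medians of 0.0082 and 0.063, and those of the other lists lie below 0.

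Other parts of the translation machinery were set beside the ribosomal proteins, each gene by its brightest probe set. On old replicate 3 the median difference from the young mean was 0.0082 for the 39 large-subunit and 0.063 for the 26 small-subunit genes, against 0.043 for all 19938 genes. It was -0.32 for 77 mitochondrial ribosomal protein genes, -0.23 for 49 initiation factor genes, -0.19 for 10 elongation factor genes and -0.34 for 25 nucleolar genes of ribosome assembly. The initiation list took every Eif symbol, including kinases such as Eif2ak1 and binding proteins such as Eif4ebp1. The elongation list also held Etf1, Gspt1, Eef2k, Eef1e1 and Tsr1, which are not elongation factors, and Eif5a, which is in both lists. On old replicates 1 and 2 the medians were -2.19 and -1.39 for the large subunit, -2.08 and -1.35 for the small subunit, -1.30 and -1.01 for mitochondrial ribosomal proteins, -2.62 and -2.31 for initiation factors, -3.23 and -2.69 for elongation factors and -1.38 and -1.07 for the nucleolar genes. In limma 0 genes passed the adjusted threshold in each of these lists (background 0.0%). On old replicates 1 and 2 the receptor percentile was exceeded by 20 and 30 of the 77 mitochondrial genes. It was exceeded by 9 and 14 of 49 initiation, 3 and 4 of 10 elongation and 6 and 9 of 25 nucleolar genes. Of the ribosomal protein genes, 27 and 32 of 39 large-subunit and 22 and 21 of 26 small-subunit ones exceeded it. The differences of genes under it have no exact size. These lists stand at different intensities, and the differences between them were not tested.

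The nucleolar and mitochondrial genes give examples of lower values on old replicate 3. Fbl, the methyltransferase of box C/D small nucleolar particles, was at 7.69, 7.40 and 8.34 on the old arrays, against 9.18, 8.90 and 9.34 on the young arrays. Dkc1, the pseudouridine synthase of the box H/ACA particles, was at 3.41, 3.51 and 6.28, against 7.16, 7.24 and 7.61. Mrpl13 of the mitochondrial large subunit was at 5.93, 5.83 and 6.33, against 7.24, 7.19 and 7.25. In these 3 genes old replicate 3 stood below the young range by more than 0.5 log2 units. On old replicates 1 and 2, Dkc1 and Mrpl13 were under the receptor percentile.

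Messenger RNAs of other proteins that also begin with a pyrimidine run were listed too, 8 of them shared with the lists above (such as Eef1a1, Eif4b and Npm1). Over 14 such genes the median differences were -3.96, -2.87 and -0.11 on old replicates 1, 2 and 3, and their difference from the ribosomal proteins was not tested. Tpt1, the translationally controlled tumour protein, was at 10.09, 11.23 and 12.07 on the old arrays, against 11.85, 11.76 and 11.82 on the young arrays. Eef1a1, which brings aminoacyl-tRNA to the ribosome, was at 6.29, 9.02 and 11.76, against 11.87, 11.89 and 12.04. Fau, a ribosomal protein of the small subunit that the symbol rule does not take, was at 7.75, 8.31 and 10.82, against 10.95, 11.04 and 10.85, so that it was low on the same 2 old arrays as the members.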

How the data were processed

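The values are probe set intensities that the authors deposited on a linear scale, and RMA is the tool that the submitters' processing notes name. Its version was not given in the sources used here. Log2 was taken of each deposited intensity, and no further normalization was applied. Groups follow the age in the labels. Old and young arrays were compared with limma 3.58.1 in R 4.3.3 (moderated variances, 2-sided, age as the only factor) over the 23410 probe sets with a gene, with Benjamini-Hochberg adjustment and a threshold of 0.05. The fit was checked on simulated data, which does not test the calls made on these arrays. It pools the spread of both ages, although the SD of the brightest Rpl5 probe set was 2.77 on old and 0.0056 on young arrays. Counts and medians used Python 3.11.15 with numpy 2.4.6 and pandas 2.3.3, and plots used matplotlib 3.10.9. Of the annotated probe sets, 1621 name several genes and were tested but not counted as members, and 5530 probe sets without a gene were not tested. For a gene with several probe sets the brightest by its mean over the 6 arrays is described first.

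The members, the gene lists and the tests were chosen with earlier results of these data known, so that none of them is independent support. Named genes are those with the smallest p or the largest and smallest differences in each subunit, those with 5 or more probe sets, those brightest or dimmest on the young arrays, and those of the lists on the stalk, related copies, marrow failure and leukaemia; values of the other members are in the plot of gene levels. Same-numbered old and young arrays deviated together with correlations of 0.16, 0.15 and 0.28, each above 0.1 over 3 pairs, but old replicate 1 with young replicate 2 reached 0.15 and old replicate 2 with young replicate 1 reached 0.14, so that the first 2 pairs are not singled out. A fit with the replicate number as a block was made. It called 0 members, as did the fit without it. Alternatives covered the filter on dim probe sets, centring, quantile normalization, variance moderation, array weights, each array left out, and the choice of probe sets.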

Additional observations from a re-analysis of the deposited data

How the results depend on the processing

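The count of 0 members called by limma at an adjusted p under 0.05 was also found with the replicate block (0 lower, 0 higher), with a threshold of 0.1 and under the alternatives of filter, centring, quantile normalization, moderation and choice of probe sets. The exceptions were array weights, with 193 called lower and 4 higher (the weights did not fully converge), and the removal of old replicate 3, so that leaving out each array gave 0 to 193 lower and 0 to 4 higher. Old replicate 3 alone, an alternative chosen after seeing the data, gave 3 lower and 1 higher, and there the medians reversed to 0.027 for the large and 0.074 for the small subunit. Otherwise the medians stayed negative, from -2.35 to -0.30 for the large and from -2.07 to -0.25 for the small subunit, nearest 0 under quantile normalization. Centring and quantile normalization moved the median of all annotated probe sets to 0.096 and 0.092, against 0.35 as reported.

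The counts without overlap moved more. Large-subunit probe sets lower in old numbered 74 after centring, 28 after quantile normalization, 49 to 127 with each array left out, 13 by the brightest probe set and 16 by the mean of each gene, and 127 with probe sets of several genes. Those higher in old numbered 0 without dim probe sets or with core genes alone, 14 after quantile normalization, 1 to 3 with each array left out, 62 with old replicate 3 alone and 2 with probe sets of several genes. Small-subunit probe sets lower in old numbered 35 after centring, 22 after quantile normalization, 14 to 71 with each array left out, 5 by the brightest probe set, 7 by the gene mean and 37 with probe sets of several genes. Those higher numbered 1 after centring, by the brightest probe set or with core genes alone, 14 after quantile normalization, 2 to 9 with each array left out and 55 with old replicate 3 alone. Of all annotated probe sets, 22.9% were lower and 36.1% higher without overlap as reported, 30.5% and 21.8% after centring, 16.5% and 21.8% after quantile normalization, 32.4% and 56.7% without old replicate 3, and 31.8% and 41.7% with old replicate 3 alone. Counts by gene or with several-gene probe sets have other totals by construction. The cause of the other shifts was not tested.

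Of 28 genes with a fitted difference in the text, 24 passed the threshold without old replicate 3 (of all annotated probe sets 30.2% passed lower and 52.2% higher) and 23 with array weights. Quantile normalization reversed Rplp1 (0.083), Rplp2 (0.62), Rpl27a (0.49), Rpl7a (0.92), Rpl22 (0.96), Rpl36a (0.37), Rps12 (0.19) and Rps19 (1.01). Array weights reversed Rpl27a (0.021) and Rps12 (0.015). With each array left out in turn, Rpl27a ran from -0.76 to 0.23, Rps12 from -0.18 to 0.12, Rps20 from -0.70 to 0.0043 and Rps19 from -0.77 to 0.18, each positive only without old replicate 1. Signal over background limits the values on old replicates 1 and 2: 190, 207 and 216 of the 221 members exceeded the receptor level on old replicates 1, 2 and 3, against 218 to 219 on the young arrays.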
